A study of Homo sapiens with 3 samples.

Results

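The genes described here are 36 genes of cholesterol and fatty acid synthesis, taken from a list chosen with earlier results of these data known. The list holds 19 sterol enzymes, 8 regulators of the SREBP transcription factors or carriers of sterol, and 9 fatty acid enzymes. These genes were measured on Affymetrix expression arrays in a human colorectal cancer cell line, with 3 arrays in all and 1 array per group. The control array holds RNA of cells infected with an empty-vector virus, the LATS2 array RNA of cells infected with a virus for full-length LATS2, and the LATS2N array RNA of cells infected with a virus for residues 1 to 625 of LATS2. LATS2 is a Hippo pathway kinase that phosphorylates serine and threonine, and its kinase domain lies in the C-terminal part that LATS2N lacks. The labels of every array name the line SW620, whereas the series' own design text names SW480. That text calls the expression stable and does not say whether a line was 1 clone or a pool. A probe set, the array's unit of measurement, was annotated to 34 of the 36 genes, with 77 probe sets in all, out of 54675 on each array. FDFT1 and ACSL3 are named only. The probe sets of CYP51A1 also carry the symbol LRRD1 and those of FADS1 also carry MIR1908, so both genes were read only through probe sets of several symbols. With 1 array per group there is no spread between samples, no test and no p-value for any value below.

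Cells make cholesterol from acetyl-CoA through mevalonate and squalene, and make fatty acids from the same acetyl-CoA. Most enzymes of both routes are transcribed under SREBP factors, which are encoded by SREBF1 and SREBF2. These factors are made as membrane proteins of the endoplasmic reticulum. SCAP carries them to the Golgi for cleavage when sterol is low, and the INSIG proteins hold SCAP back when sterol is high. SREBP2 acts mainly on sterol genes and SREBP1c mainly on fatty acid genes.

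Each value below is a MAS5 signal on a linear scale. A ratio is the log2 ratio of 2 arrays after signals under 50.5, the median of all probe sets on the 3 arrays, were raised to that floor. A gene is represented by its brightest probe set with 1 symbol where it has one. The trimmed mean came to 500.1 on each array. LATS2 itself had 4 probe sets, of which 2 reached the floor. They read 206 in control, 219 with LATS2 and 219 with LATS2N, and 385, 377 and 409, so no raised LATS2 signal was seen. The position of these probes in the transcript is unknown here, and probes that lie in no cloned part cannot detect a construct, so they check no label. As a check of the labelled cell type, 8 of 10 listed markers of colorectal epithelium were above the floor on all arrays. EPCAM lay between 16608 and 18756. Of the 8, 6 were higher on the LATS2 array than in control and 2 were lower, with a median log2 ratio of 0.09. The 2 lower ones were the adhesion gene CDH1 and the brush border gene VIL1, in the order of the sterol genes. CDH1 read 4421 in control, 2792 with LATS2 and 3567 with LATS2N, and VIL1 read 5013, 3948 and 4666. CDX1 and CEACAM5 were above the floor on the LATS2N array only. Of 10 measured markers of blood, endothelial and stromal cells, 5 reached the floor on any array, none was at 0, and their summed signal was 764 in control, 964 with LATS2 and 1013 with LATS2N. COL1A1, a collagen of stromal cells, read 325 in control, 596 with LATS2 and 607 with LATS2N, ACTA2, smooth muscle actin, read 46.7, 103 and 100.02, and PECAM1, of endothelium, went down, at 142, 85.0 and 91.6. The other 2 of these 5, both dim, were CD14 and DCN. CD14 read 73.5 in control, 93.2 with LATS2 and 48.4 with LATS2N, and DCN read 57.3, 23.5 and 62.6. The part of these markers in the results was not tested. In RNA of a whole culture, fewer cells with a transcript and less of it per cell cannot be told apart.

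Most of the listed genes had lower signals with full-length LATS2 than in control, with the lowest ratios in INSIG1, MVD, IDI1 and HMGCS1. Of the 34 genes with a probe set, 33 had at least 1 of the 2 arrays at the floor or brighter, and 23 of these were lower on the LATS2 array, a share of 69.7% against 45.2% of all 13186 genes that reached it. The other 10 were higher, where 54.8% of all genes were. By a 2-fold limit 3 of the 33 were lower, INSIG1, MVD and IDI1, and none was higher. Among all genes, 0.842% were lower and 0.963% higher by that limit. IDI1 lay just inside the limit at 2.01-fold and HMGCS1 just outside at 1.97-fold. Without probe sets of the suffixes _s_at and _x_at, which may read more than 1 transcript, 19 of the genes were left and 1 was 2-fold lower, INSIG1. With the median over probe sets 3 were again lower, but IDI1, at -0.89, fell short and HMGCS1, at -1.20, passed. MVD, with 163 in control, is left out where a signal of 200 is asked. By a 1.5-fold limit 10 of the 33 were lower, where the background was 4.41%, and 2 were higher, TM7SF2 and FADS2, where the background was 5.85%. The 10 lower genes were 6 sterol enzymes (HMGCS1, MVD, IDI1, LSS, MSMO1 and DHCR7), 3 genes of SREBP control or sterol transport (INSIG1, STARD4 and SREBF2) and 1 fatty acid enzyme, SCD. Of these, LSS and DHCR7 fell short of 1.5-fold with the median over probe sets, at -0.56 and -0.54.

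**Figure D1:**
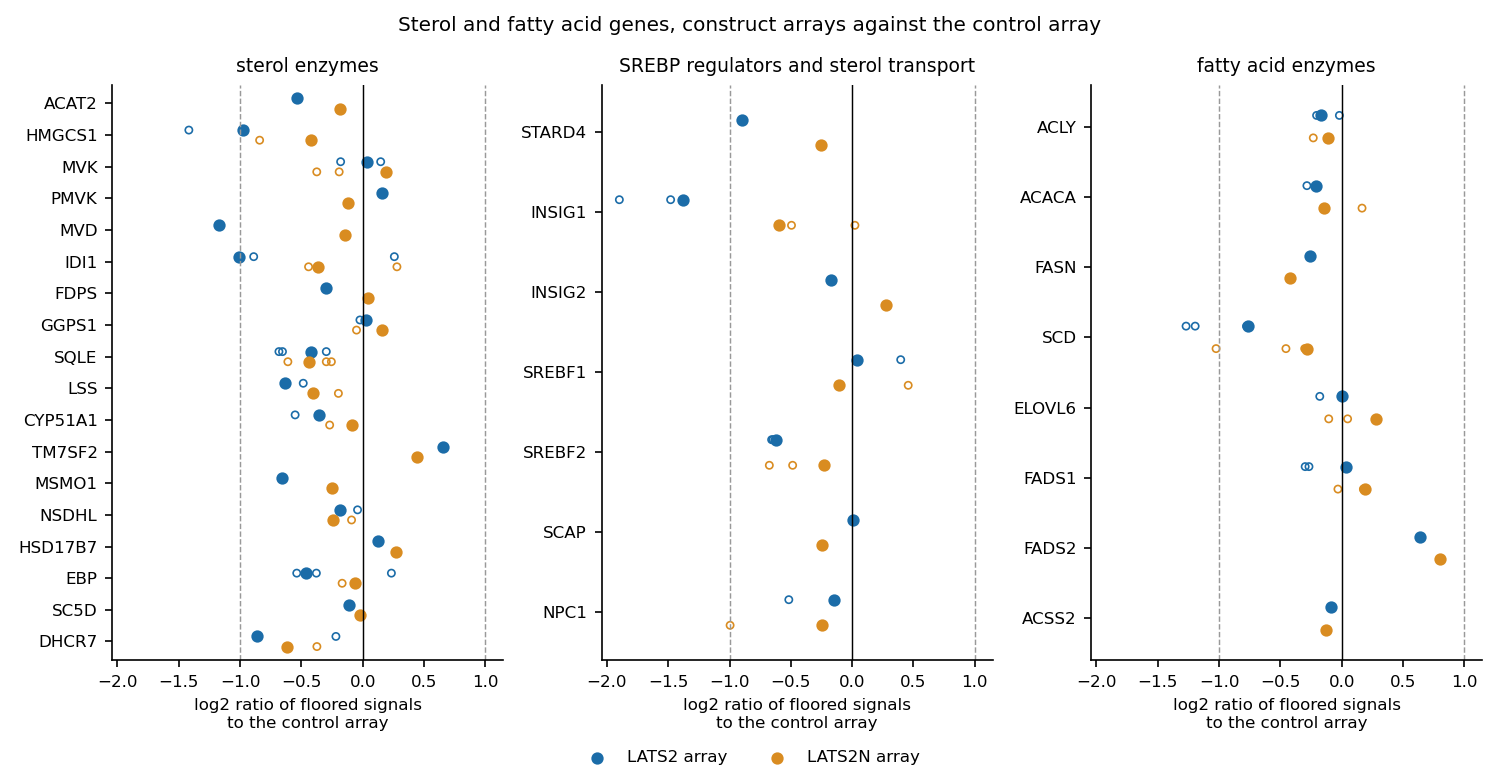
The log2 ratio of floored signals to the control array is plotted for each gene that reached the floor, in blue for the LATS2 array and in orange for the LATS2N array. Filled points are the probe set that represents the gene, open points are its other probe sets that reached the floor, and dashed lines mark 2-fold. INSIG1, MVD and IDI1 are the genes whose filled blue point lies at or past the left dashed line.

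By group, the median log2 ratio of LATS2 to control was -0.39 over 18 sterol enzymes, -0.17 over 7 genes of SREBP control and sterol transport, and -0.13 over 8 fatty acid enzymes, beside 0.03 over all genes. To set these ratios against noise between probe sets, a spread was taken from pairs of probe sets of 1 gene, over all genes with such a pair. The difference of a pair was divided by the square root of 2, so the spread is that of 1 probe set. As a robust SD of the log2 ratio of LATS2 to control, it was 0.43 where the dimmer signal lay between the floor and 100, 0.35 from 100 to 200, 0.27 from 200 to 500, 0.18 from 500 to 2000 and 0.12 above 2000. It covers noise between probe sets, and neither a difference between cultures nor an error shared by a whole array. The limit of 2 spreads was chosen after seeing the data. On the LATS2 array 14 of the 33 genes were lower than control by more than 2 such spreads, where the background was 5.63%, and 1 was higher, TM7SF2, where the background was 8.26%. Besides the 10 genes named above, the lower ones were ACAT2, EBP, FDPS and SQLE.

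**Figure D2:**
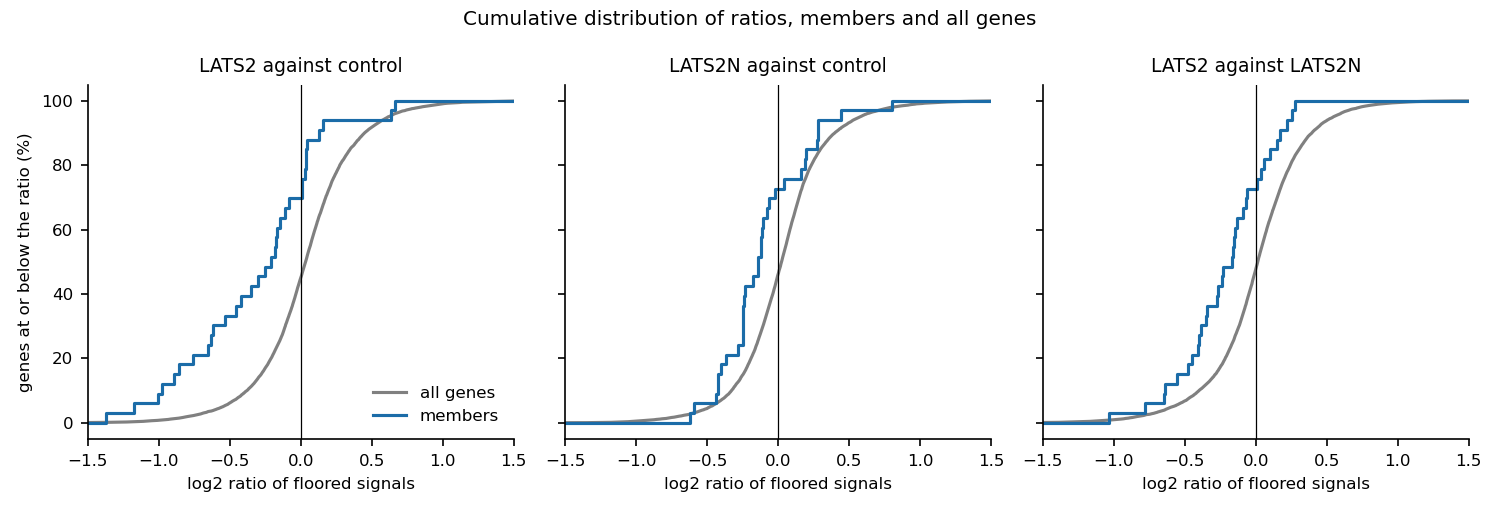
Each panel gives, for 1 comparison, the percent of genes at or below a log2 ratio of floored signals, as a grey line for all genes with a probe set of 1 symbol and as a blue step line for the 33 sterol and fatty acid genes. In LATS2 against control the blue line lies to the left of the grey one below 0, and 30.3% of the 33 genes are at least 1.5-fold lower.

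Promoters of the genes were searched because most enzymes of both routes, lower here or not, are transcribed under SREBP factors. The part of these factors in the ratios was not tested. RefSeq promoter windows (GRCh38.p14), from 250 bases before to 50 after the annotated start, were present for 32 of the 36 genes. They were absent for ACAT2, SQLE, FASN and FDFT1. A strict form of the sterol regulatory element, which SREBP factors bind, was found on either strand in 1 of the 32, the promoter of SREBF2, and in 0.154% of all 27305 promoters. The letters CCAAT, bound by NF-Y, a known partner of SREBP factors, were found in 19 of the 32 (59.4%) and in 35.7% of all promoters. GGGCGG, the box of Sp1, was in 29 of the 32 (90.6%) against 44.6%, and CACGTG, an E-box, in 5 (15.6%) against 7.43%. Shares of all promoters were taken whether or not a gene reached the floor, unlike the backgrounds of the ratios. They are therefore no background of genes expressed in these cells. Of the 10 genes at least 1.5-fold lower on the LATS2 array, 9 had a CCAAT match, and of the 20 others with a window that reached the floor, 9 had one. GGGCGG was in 10 of the 10 and 17 of the 20, and CACGTG in 2 of the 10 and 2 of the 20. The strict sterol element was in 1 and 0. Of the genes lower by more than 2 spreads but not 1.5-fold, EBP and FDPS are among the 20, and ACAT2 and SQLE had no window. This division was made after the values were seen and has no test. A match of letters is no shown binding site. The 250 bases before the start are given for SREBF2, the one with the strict sterol element. They are also given for INSIG1, MVD and HMGCS1, 3 of the 4 lowest genes, and for IDI1, the lower gene without CCAAT. Capitals mark the sterol regulatory element and CCAAT on either strand (the latter read as ATTGG on the reverse), and bases run 5′ to 3′ on the gene's strand.
SREBF2, chr22:41832855-41833104, plus strand: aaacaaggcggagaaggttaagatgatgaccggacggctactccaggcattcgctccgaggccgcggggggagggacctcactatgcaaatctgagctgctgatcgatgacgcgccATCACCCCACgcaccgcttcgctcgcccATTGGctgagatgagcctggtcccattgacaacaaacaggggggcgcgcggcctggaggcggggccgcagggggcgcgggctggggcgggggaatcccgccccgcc
INSIG1, chr7:155297628-155297877, plus strand: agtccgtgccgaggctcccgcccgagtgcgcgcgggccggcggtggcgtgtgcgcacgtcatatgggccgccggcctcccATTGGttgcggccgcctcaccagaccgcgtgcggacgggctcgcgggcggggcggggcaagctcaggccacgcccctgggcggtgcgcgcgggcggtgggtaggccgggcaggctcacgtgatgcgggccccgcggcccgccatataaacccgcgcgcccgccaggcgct
MVD, chr16:88663092-88663341, minus strand: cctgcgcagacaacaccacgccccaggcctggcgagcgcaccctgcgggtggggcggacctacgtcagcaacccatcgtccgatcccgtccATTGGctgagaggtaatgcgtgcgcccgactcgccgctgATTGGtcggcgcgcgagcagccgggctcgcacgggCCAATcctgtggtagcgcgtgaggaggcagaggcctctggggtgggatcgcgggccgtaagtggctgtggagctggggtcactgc
HMGCS1, chr5:43313413-43313662, minus strand: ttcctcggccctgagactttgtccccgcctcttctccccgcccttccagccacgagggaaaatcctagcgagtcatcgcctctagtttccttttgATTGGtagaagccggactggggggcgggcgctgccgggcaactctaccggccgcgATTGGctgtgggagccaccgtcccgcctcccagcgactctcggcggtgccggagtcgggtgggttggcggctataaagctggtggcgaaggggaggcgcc
IDI1, chr10:1056705-1056954, minus strand: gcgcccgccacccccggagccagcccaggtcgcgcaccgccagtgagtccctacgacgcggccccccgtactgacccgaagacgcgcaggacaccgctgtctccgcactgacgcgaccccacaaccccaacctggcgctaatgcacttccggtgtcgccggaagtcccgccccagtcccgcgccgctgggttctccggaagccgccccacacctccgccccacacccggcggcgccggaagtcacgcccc
In these windows the SREBF2 element begins 134 bases before the start, with a CCAAT match 106 bases before it. The matches begin 170 bases before the start of INSIG1, at 159, 120 and 85 in MVD, and at 155 and 100 in HMGCS1.

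**Figure D3:**
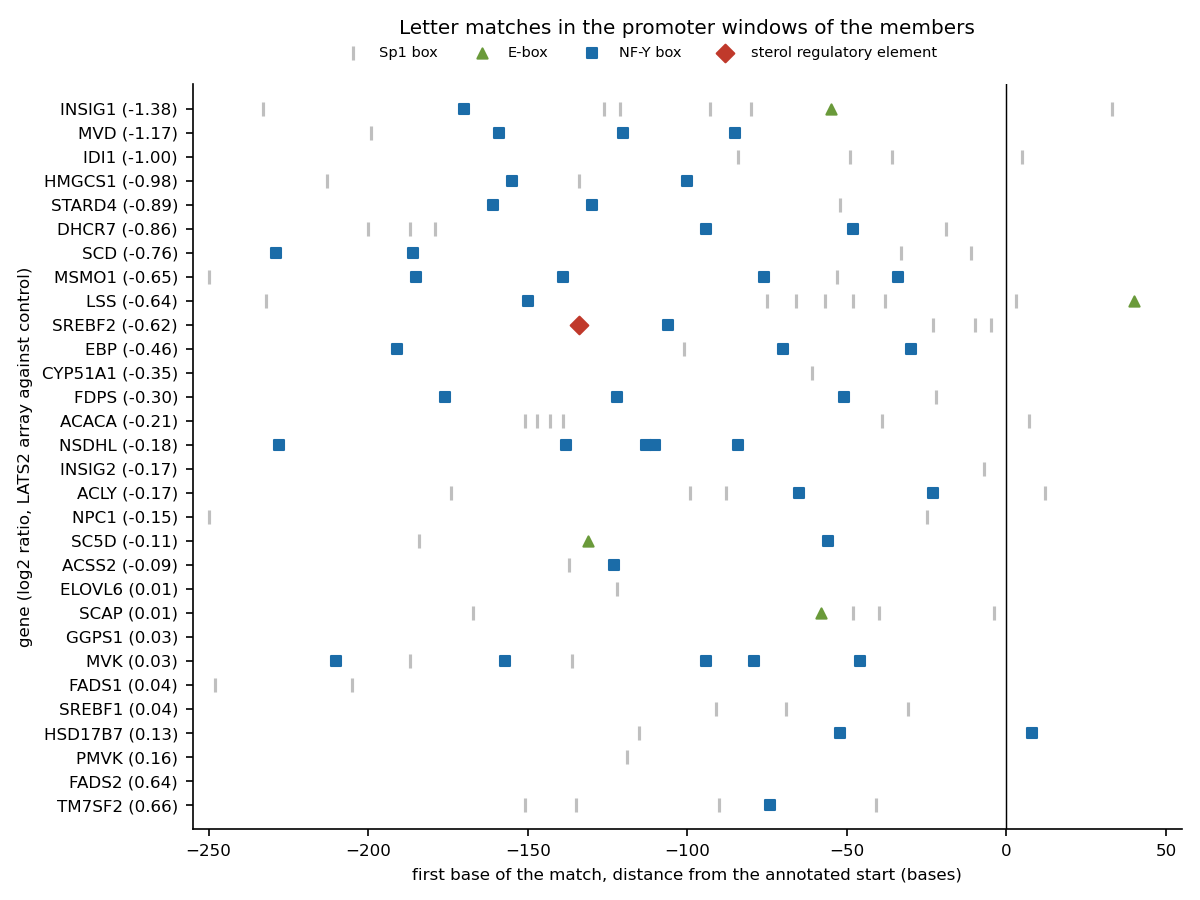
Letter matches are placed by the distance of their first base from the annotated start, in bases, for the 30 genes that reached the floor and had a promoter window, ordered by the log2 ratio of LATS2 to control given in parentheses. Red diamonds are the strict form of the sterol regulatory element, blue squares CCAAT, grey ticks GGGCGG and green triangles CACGTG, each on either strand. Blue squares are present in 9 of the upper 10 genes.

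In the mevalonate part of the pathway, HMGCS1, which condenses acetyl-CoA with acetoacetyl-CoA to HMG-CoA, was lower on both construct arrays. Its brighter probe set, 221750_at, read 655 in control, 333 with LATS2 and 488 with LATS2N, and its other one read 201, 75.3 and 112. In both probe sets the control array was highest and the LATS2 array lowest. The log2 ratio of LATS2 to control was -0.98 and -1.42, against a spread of 0.27 at the brighter one's signal. MVD, which makes isopentenyl diphosphate, had 1 probe set, 203027_s_at, at 163 in control, 72.2 with LATS2 and 148 with LATS2N. Only the LATS2 array stood apart for MVD. Its log2 ratio to control was -1.17, and the spread between probe sets at such a dim signal was 0.43.

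IDI1, the isopentenyl diphosphate isomerase, was read by 3 probe sets above the floor that did not all go one way. The brightest, 208881_x_at, read 3491 in control, 1740.0 with LATS2 and 2705 with LATS2N, a 2.01-fold difference between control and LATS2. A second read 3031, 1637 and 2233, in the same order. The dimmest read 202 in control, 241 with LATS2 and 245 with LATS2N, higher on both constructs. All 3 have the suffix _x_at, by which the manufacturer marks probes that may also read other transcripts. ACAT2, the cytosolic thiolase that starts the pathway, read 3500.1 in control, 2418 with LATS2 and 3086 with LATS2N. The LATS2 array was lowest for ACAT2, with a log2 ratio of -0.53 against a spread of 0.12.

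Other mevalonate enzymes differed less or not in this direction. FDPS, the farnesyl diphosphate synthase, read 10147 in control, 8238 with LATS2 and 10455 with LATS2N, so that only the LATS2 array was low, with a log2 ratio of -0.30. MVK, mevalonate kinase, read 571 in control, 585 with LATS2 and 651 with LATS2N in its brightest probe set. Its dimmer ones above the floor read 137, 121 and 106, and 86.7, 96.0 and 75.9, lowest on the LATS2N array. PMVK, phosphomevalonate kinase, read 1507 in control, 1679 with LATS2 and 1385 with LATS2N. By the probe set that represents each kinase, the ratios of LATS2 to control, 0.03 and 0.16, were within the spread of 0.18. GGPS1, which makes geranylgeranyl diphosphate for protein prenylation and lies on a branch that does not lead to sterol, read 3249 in control, 3316 with LATS2 and 3631 with LATS2N.

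After squalene, the enzymes with the lowest ratios on the LATS2 array were DHCR7, MSMO1 and LSS. DHCR7, which carries out the last reduction to cholesterol, read 2921 in control, 1609 with LATS2 and 1900.2 with LATS2N in its brighter probe set, 201791_s_at. Both construct arrays were low for DHCR7, with log2 ratios of -0.86 and -0.62. Its other probe set read 1594 in control, 1370.2 with LATS2 and 1230.5 with LATS2N, which is the opposite order of the constructs. MSMO1, the C4-methylsterol oxidase once named SC4MOL, read 3593 in control, 2284 with LATS2 and 3021 with LATS2N in its 1 probe set. The LATS2 array was lowest, with a log2 ratio of -0.65 against a spread of 0.12. LSS, which closes the sterol rings, read 2328 in control, 1498 with LATS2 and 1760 with LATS2N, and its log2 ratios were -0.64 and -0.40.

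SQLE, the squalene epoxidase and a rate-controlling step, was lower on both construct arrays. Its brightest probe set read 3639.5 in control, 2711 with LATS2 and 2689 with LATS2N, so that the constructs lay together below control. Its second brightest, 213577_at, read 565 in control, 359 with LATS2 and 474 with LATS2N, with the LATS2 array lowest and log2 ratios of -0.65 and -0.25. All 4 of its probe sets that reached the floor were lower on the LATS2 array and all 4 were lower on the LATS2N array. EBP, the sterol isomerase, read 3397 in control, 2469 with LATS2 and 3251 with LATS2N, with only the LATS2 array low. In EBP, 3 of 4 probe sets were lower on the LATS2 array, and the fourth was near the floor. CYP51A1, the lanosterol demethylase, read 1621 in control, 1269.5 with LATS2 and 1530.2 with LATS2N in its brighter probe set of several symbols. Its log2 ratio of LATS2 to control was -0.35 against a spread of 0.18.

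Late enzymes did not all follow. NSDHL, SC5D and HSD17B7, which act on demethylation, desaturation and reduction of the sterol, had log2 ratios of LATS2 to control of -0.18, -0.11 and 0.13, within the spread of 0.18. HSD17B7 was read by 1 probe set with the suffix _x_at. TM7SF2, a sterol reductase of the C14 position, went the other way. It read 317 in control, 501 with LATS2 and 431 with LATS2N, so that both construct arrays were high. It was 1.58-fold higher on the LATS2 array, a log2 ratio of 0.66 against a spread of 0.27.

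Among the regulators, INSIG1 had the lowest ratio of all the listed genes. INSIG1 is itself an SREBP target and retains SCAP in the endoplasmic reticulum. Its brightest probe set, 201626_at, read 798 in control, 308 with LATS2 and 529 with LATS2N. A second, 201627_s_at, read 674, 181 and 479, and the third, 201625_s_at, read 318, 114 and 323. The LATS2 array was lowest in all 3, while the LATS2N array was below control in 2 and level with it in the other. INSIG1 was 2.60-fold lower on the LATS2 array by its brightest probe set and ranked 26 from the lowest among 13186 genes, and by the other probe sets it was 3.73-fold and 2.79-fold lower. INSIG2, the second retention protein, which is not known as an SREBP target, read 1866 in control, 1653 with LATS2 and 2262 with LATS2N, a log2 ratio of -0.17 for LATS2, within the spread of 0.18.

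SREBF2 was also lower on the LATS2 array, whereas SREBF1 and SCAP were not. The 3 probe sets of SREBF2 read 364, 368 and 146 on the control, 237, 235 and 92.7 on the LATS2 array, and 310.1, 263 and 91.5 on the LATS2N array. The control array was highest in all 3, and the log2 ratios of LATS2 to control were -0.62, -0.65 and -0.66, against a spread of 0.27 for the brightest. SREBF1 read 906 in control, 931 with LATS2 and 839 with LATS2N in its brighter probe set. Its dimmer one read 88.8, 117 and 122, highest on the LATS2N array. SCAP read 1549.8 in control, 1558 with LATS2 and 1306.5 with LATS2N. By the probe set that represents each gene, the ratios of LATS2 to control for SREBF1 and SCAP were 0.04 and 0.01.

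STARD4, a carrier that moves cholesterol between membranes and an SREBP2 target, read 1462 in control, 786 with LATS2 and 1228 with LATS2N. The LATS2 array was lowest, 1.86-fold below control. NPC1, which exports cholesterol from lysosomes, read 1645 in control, 1487 with LATS2 and 1387 with LATS2N, with log2 ratios of -0.15 and -0.25. Its dimmer probe set, 238568_s_at, read 101 in control, 70.4 with LATS2 and 39.2, below the floor, with LATS2N, with a log2 ratio of -0.52 for LATS2 and a 1.99-fold lower floored signal for LATS2N. ABCA1, the sterol exporter that responds to the LXR receptors, did not reach the floor on any array in any of its 4 probe sets, so no ratio is given.

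**Figure D4:**
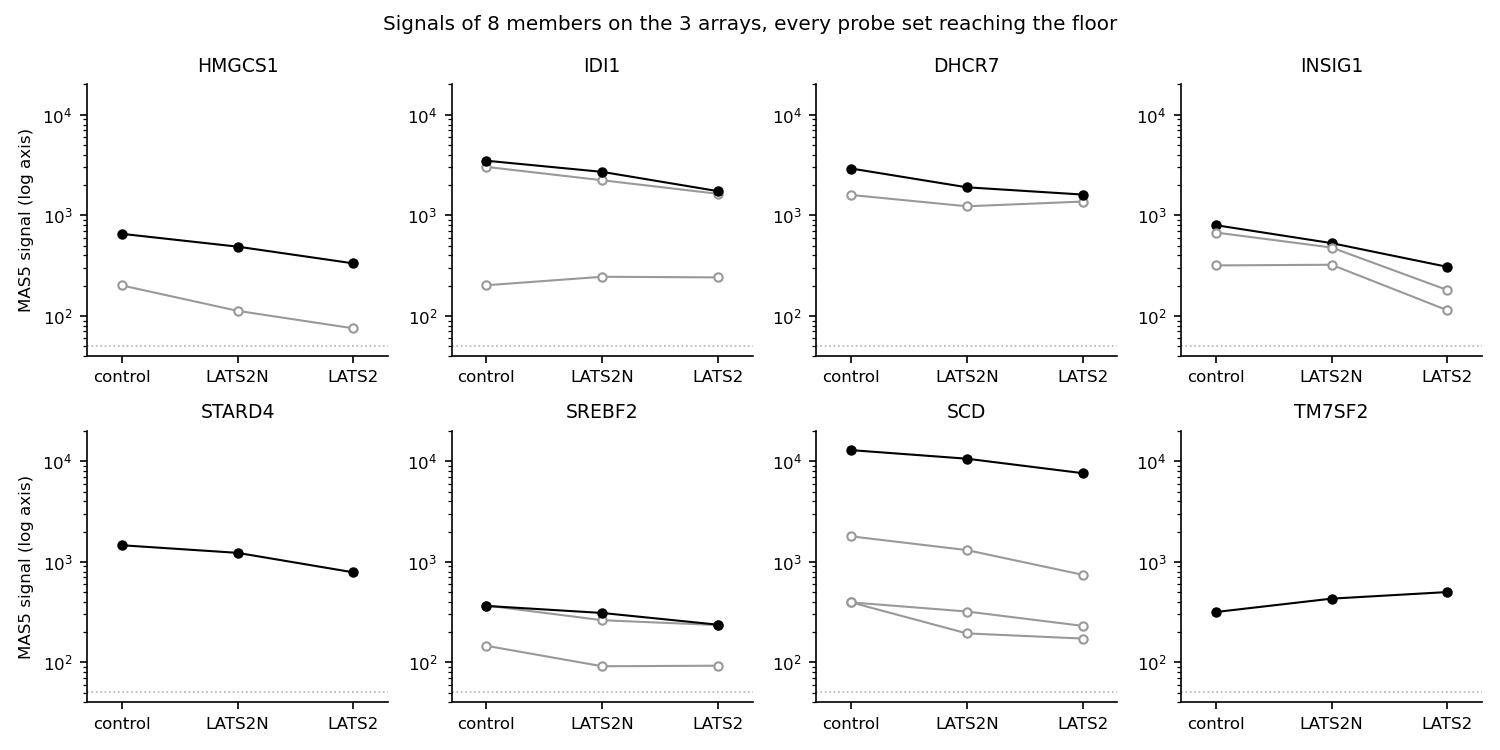
MAS5 signals on a log axis are shown for 8 genes on the control, LATS2N and LATS2 arrays, with 1 line per probe set that reached the floor. Black lines are the probe set that represents the gene and the dotted line is the floor of 50.5. In HMGCS1, INSIG1, STARD4 and SCD the LATS2 point is lowest in every line, while TM7SF2 is highest on the LATS2 array.

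Of the fatty acid enzymes, SCD stood apart. SCD introduces the double bond that turns stearate into oleate and is a target of SREBP1c and LXR. Its brightest probe set, 200832_s_at, read 12907 in control, 7616 with LATS2 and 10603 with LATS2N. The other 3 read 1793, 744 and 1308, then 395, 173 and 194, then 395, 231 and 321. The control array was highest and the LATS2 array lowest in all 4. The log2 ratios of LATS2 to control ran from -1.27 to -0.76, with a spread of 0.12 at the brightest signal, and 2 of the 4 were past 2-fold.

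The enzymes that build palmitate differed less. ACLY, which makes cytosolic acetyl-CoA from citrate, read 10996 in control, 9769 with LATS2 and 10172 with LATS2N. ACACA, the acetyl-CoA carboxylase, read 2355, 2036 and 2135 on the control, LATS2 and LATS2N arrays. FASN, the fatty acid synthase, read 2024 in control, 1696 with LATS2 and 1509 with LATS2N. By these probe sets all 3 were highest on the control array, with log2 ratios of LATS2 to control of -0.17, -0.21 and -0.25, each under 2 spreads. A dimmer probe set of ACACA read 641 in control, 527 with LATS2 and 719 with LATS2N, highest on the LATS2N array. ACSS2, which makes acetyl-CoA from acetate, had a ratio of -0.09.

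By the probe set that represents each gene, elongation and the other desaturases were not lower. ELOVL6, which elongates palmitate, read 2729 in control, 2742 with LATS2 and 3307 with LATS2N in its brightest probe set. Only the LATS2N array was high there. Its dimmer probe sets did not repeat this. They read 578 in control, 510 with LATS2 and 597 with LATS2N, and 223, 222 and 207. FADS1, the delta-5 desaturase, read 991 in control, 1016 with LATS2 and 1133 with LATS2N in its brightest probe set of several symbols, while its other 2 probe sets were lower on the LATS2 array, with log2 ratios of -0.30 and -0.27. FADS2, the delta-6 desaturase, was dim, at 67.9 in control, 106 with LATS2 and 118 with LATS2N. Both construct arrays were high for FADS2, with log2 ratios of 0.64 and 0.80, under 2 spreads at that signal (1 spread was 0.43 and 0.48).

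The LATS2N array was then compared with the same control array, to ask what was measured with the fragment without the kinase domain. Of 33 genes that reached the floor, 24 were lower, a share of 72.7% against 46.4% of all 13245 genes. The other 9 were higher, where 53.6% of all genes were. None was 2-fold lower or 2-fold higher, where the background was 0.566% lower and 0.944% higher. At 1.5-fold 2 were lower, DHCR7 and INSIG1, a share of 6.06% against 3.27% of all genes, and 1 was higher, FADS2, against a background of 4.86%. These calls rest on the choice of probe set. With the median over probe sets DHCR7 and INSIG1 had -0.50 and -0.49 and fell short, while HMGCS1 and NPC1 passed at -0.63 and -0.62. INSIG1 also fell short after quantile normalization, at -0.58, and FADS2 is left out where a signal of 200 is asked. The medians were -0.13 for the sterol enzymes, -0.25 for the regulators and carriers and -0.12 for the fatty acid enzymes, beside 0.02 for all genes. By more than 2 spreads 9 of the 33 were lower, ACAT2, DHCR7, FASN, IDI1, INSIG1, LSS, MSMO1, SCD and SQLE, where the background was 5.81%. By the same measure 1 was higher, ELOVL6, in its brightest probe set but not in its others, where the background was 7.69%.

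The lowest genes on the LATS2N array were not in the same order as on the LATS2 array. DHCR7 and INSIG1 had log2 ratios of -0.62 and -0.59 to control, and SQLE, FASN and HMGCS1 followed at -0.44, -0.42 and -0.42. MVD, second lowest on the LATS2 array, had -0.14 on the LATS2N array, within the spread of 0.34. The constructs share 1 control array, so their ratios are not independent.

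The construct arrays were therefore set against each other directly, without the control array. On the LATS2 array 24 of 33 genes were lower than on the LATS2N array, a share of 72.7% against 47.7% of all 13175 genes. By the probe set that represents each gene, MVD was 2.05-fold lower and the only gene past 2-fold. The background was 1% lower and 0.592% higher. INSIG1 was past 2-fold in its dimmer probe sets, 2.83-fold lower in 201625_s_at and 2.65-fold lower in 201627_s_at. At 1.5-fold 4 were lower, MVD, INSIG1, IDI1 and STARD4, where the background was 5.07%, and none was higher, where the background was 4.27%. MVD's ratio of -1.03 rests on signals of 72.2 and 148, where the spread between probe sets was 0.51. INSIG1, STARD4 and IDI1 had log2 ratios of -0.78, -0.64 and -0.64, with spreads of 0.26, 0.16 and 0.16.

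By more than 2 spreads 12 of the 33 genes were lower on the LATS2 than on the LATS2N array and none was higher, where the background was 6.6% lower and 7.7% higher. The 12 were ACAT2, EBP, FDPS, HMGCS1, IDI1, MSMO1 and MVD of the sterol enzymes, INSIG1, INSIG2 and STARD4, and SCD and ELOVL6. For ELOVL6 this held in its brightest probe set only, and its others had log2 ratios of -0.23 and 0.10. FASN, with 1696 and 1509 in its 1 probe set above the floor, was not lower on the LATS2 array. The SQLE probe sets were divided: the brightest read 2711 and 2689, while the other 2 that reached the floor on these arrays read 359 and 474, and 136 and 143, lower with LATS2. The group medians of LATS2 to LATS2N were -0.24, -0.39 and -0.11 for the sterol enzymes, the regulators and carriers, and the fatty acid enzymes.

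Counted by probe set, 65 of the 77 had LATS2 or control at the floor or brighter, 51 of them were lower on the LATS2 array, against 48.5% of all probe sets, and 8 were at least 2-fold lower, against 1.16%. These 8 were all 3 of INSIG1, 2 of SCD, and 1 each of HMGCS1, MVD and IDI1. None of the 65 was 2-fold higher, where the background was 1.02%. With LATS2N against control, 49 of 64 were lower, where the background was 49.4%. Of these 1 was 2-fold lower, the SCD probe set 211162_x_at, where the background was 0.803%, and none was 2-fold higher, where it was 0.899%. Between the constructs, 44 of 64 were lower with LATS2, where the background was 48.6%. There 3 were 2-fold lower, 2 of INSIG1 and 1 of MVD, where the background was 1.05%. None was 2-fold higher, where it was 0.747%.

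Other genes of the same metabolism were read from 4 further lists, and none of their members was 2-fold lower or higher in a construct against control. The background was 0.842% lower and 0.963% higher for LATS2, and 0.566% and 0.944% for LATS2N. At those shares, few or no calls would be found in lists of this size. Among 9 proteins that cut, anchor or degrade SREBP, SCAP or INSIG proteins, 2 were lower on the LATS2 array (22.2%). The background was 45.2%, and the median of this list was 0.05. The widest ratio there was that of MBTPS1, the first SREBP protease, at 674 in control, 913 with LATS2 and 656 with LATS2N. Among 12 genes of sterol uptake, esterification and efflux, 5 were lower (41.7%), near that background, and the median was 0.05. SOAT2, which esterifies cholesterol, had the widest ratio of that list, at signals of 57.0 in control, 109 with LATS2 and 23.8, below the floor, with LATS2N.

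Among 9 genes of the isoprenoid branch, which makes dolichol, ubiquinone side chains and prenyl groups, 4 were lower on the LATS2 array (44.4%). This share was near the background of 45.2%, and the median was 0.00. RABGGTA, a subunit of the Rab prenyl transferase, was widest, with 396 in control, 561 with LATS2 and 466 with LATS2N. Among 20 further genes of fatty acid and glycerolipid synthesis, 12 were lower (60%) and the median was -0.11. ACSL5, an acyl-CoA synthetase of the intestine, was widest in that list and higher on both construct arrays, at 279 in control, 438 with LATS2 and 503 with LATS2N. On the LATS2N array the medians of these 4 lists against control were -0.02, 0.04, 0.05 and 0.01.

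**Figure D5:**
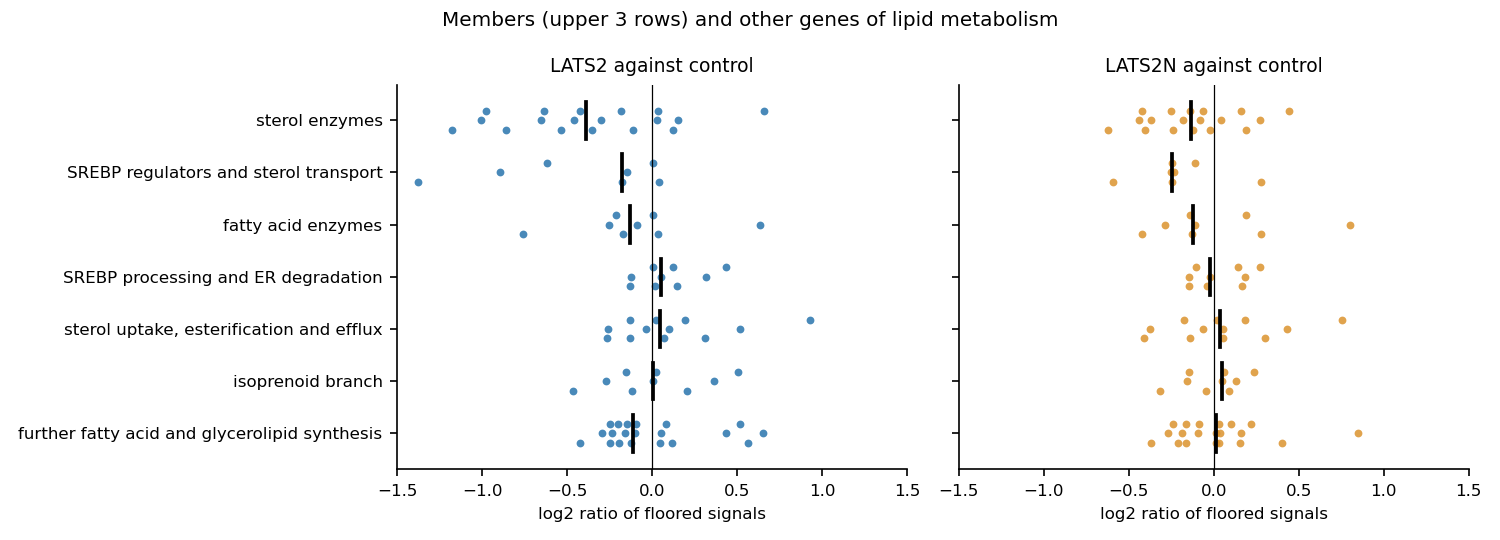
Each point is the log2 ratio of floored signals of 1 gene to the control array, on the LATS2 array in the left panel and on the LATS2N array in the right, with a black bar at the median of each list. Points are offset vertically only to keep them apart. The sterol enzymes have a median of -0.39 in the left panel, while the 4 lower lists have medians between -0.11 and 0.05.

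One technical measure moved in the same order as the lower genes. The 3 probe sets for 18S ribosomal RNA read from 10939.7 to 22536 in control, from 4419 to 12415 with LATS2 and from 5258 to 17421 with LATS2N. Their median log2 ratio to control was -1.31 for LATS2 and -0.70 for LATS2N, while that of 3 ACTB probe sets was 0.05 and 0.03. Its part in the ratios of the sterol genes was not tested.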

How the data were processed

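Total RNA (6 ug) of 3 cultures was labelled and hybridised, 1 array each, per the labels' protocols. The deposited values are linear intensities per probe set. Per the submitters' processing notes, the authors used MAS5. Version and settings are not given in the sources used here. The values show each array scaled to a mean of about 500 without its lowest and highest 2%. Probe sets were matched to genes through the platform annotation and to current symbols through RefSeq (GRCh38.p14), which gave 19775 genes with a probe set of 1 symbol.

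Signals were floored at the 50th percentile before log2 ratios were taken, and 2-fold, 1.5-fold and 2 spreads between probe sets served as limits of size. Every listed gene is named. From each further list of the pathway the genes past 2-fold above the floor are named, or else the one with the widest LATS2 ratio. The code for the calls and the spread was run on simulated data with the same noise in every probe set. That checks the code and says nothing about calls near the limits. The listed genes, lists and limits were chosen with earlier results of these data known. Python 3.11.15, pandas 2.3.3 and numpy 2.4.6 were used, and 9 alternative settings were tried. The number of arrays limits the precision.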

Additional observations from a re-analysis of the deposited data

How the results depend on the processing

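With 1 array per group, no culture-to-culture error is known, and no array could be left out. No paired analysis was possible because each group has 1 array and the labels carry no replicate numbers. A median was taken as moved when it shifted by more than 0.1. Of the regulators and carriers, the median of LATS2 to control moved from -0.17 to -0.40 with the floor at the 25th percentile, which brings ABCA1 in, and to -0.33 with the median over probe sets. Their median of LATS2 to LATS2N moved from -0.39 to -0.16 with the median over probe sets and also to -0.16 without _s_at and _x_at probe sets. Without those probe sets, which leaves 2 fatty acid enzymes, the LATS2N median of that group changed sign to 0.068, and 1 of 19 genes was 2-fold lower for LATS2 against control and 0 for LATS2 against LATS2N. That last count was also 0 at a signal of 200 or more and 2 with the median over probe sets. At 1.5-fold, the counts of lower genes were 10 for LATS2 and 2 for LATS2N against control and 4 between the constructs. Past 2 spreads, a limit chosen after seeing the data, they were 14, 9 and 12. No floor, quantile normalization, centring and leaving out probe sets of several symbols moved none of the group medians and 2-fold counts. Of 492 ratios of single genes under the alternatives, 14 moved by more than the spread between probe sets, but many could not move. The representing probe sets were above the floor on every array, so a lower floor or none left their ratios unchanged. Asking for a signal of 200 or leaving out probe sets of several symbols only drops genes. With the median over probe sets 12 moved and 54 did not. Without _s_at and _x_at probe sets 2 moved and 36 did not. No 2-fold ratio, of INSIG1, MVD or IDI1, changed sign, but MVD and IDI1 drop out without those probe sets.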

Other observations

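Genes listed for fatty acid oxidation went the other way from the sterol genes in sign. Of 12 measured genes of fatty acid oxidation and ketone metabolism, 11 were higher on the LATS2 array than on control and 1 was lower, ACADM, where 54.8% of all genes were higher. Their median log2 ratio was 0.15 beside 0.03 for all genes, and most ratios were small. Those of HADHA and ACAT1, for example, were 0.08 and 0.10, within the spread of 0.12 at their signals. The 12 also include the regulators PPARA and PPARGC1A. PPARGC1A was near the floor, at 54.6 in control, 59.8 with LATS2 and 56.8 with LATS2N. CPT1A, which admits long-chain fatty acids to mitochondria, had the widest ratio. It read 2751 in control, 4833 with LATS2 and 3048 with LATS2N, so that the LATS2 array alone stood apart, 1.76-fold above control and short of 2-fold. ACADVL, which starts oxidation of very long chains, read 2462 in control, 3275 with LATS2 and 2813 with LATS2N. ETFDH, which passes the electrons to ubiquinone, read 314 in control, 461 with LATS2 and 365 with LATS2N. On the LATS2N array 11 of the 12 were above control, where the background was 53.6%, with a median of 0.11 beside 0.02 for all genes, and PPARA, a dim gene at 96.4 and 70.7, was below it. The ratios of both constructs use the same control array. ACADVL and ETFDH were chosen after their values were seen.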
